A study of Homo sapiens with 2 samples.

Results

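Glycolysis and the response to low oxygen were followed through 40 genes of a table of 62699 genes. The genes were chosen by name: the enzymes of the glycolytic steps with glucose uptake and lactate export, the kinases that steer flux, the sugar phosphate mutases, the hypoxia-inducible factors (HIF) with their oxygen sensors, and HIF targets outside glycolysis. RNA was sequenced from HCC1954 cells, an established human breast cancer line with an amplified ERBB2 gene, which encodes the HER2 receptor. By genotype label, 1 library came from ASO-NC cells and 1 from ASO-1235 cells, and the series title names LINC01235, a long non-coding RNA, as the subject. ASO is the usual short form of antisense oligonucleotide. The labels used here give no dose, time, oxygen level or medium. The genotype label was followed, although the title of the ASO-1235 library has the prefix Si.

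Glycolysis turns glucose into pyruvate in the cytosol, and lactate dehydrogenase turns pyruvate into lactate, which leaves the cell by monocarboxylate transporters. When oxygen is scarce, prolyl hydroxylases no longer mark HIF alpha subunits for destruction, and HIF binds short DNA elements with a CGTG core near genes of glucose uptake, glycolysis, vessel growth, mitophagy and collagen modification. Many tumour cells run glycolysis at a high rate even in air.

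The libraries held 48092494 (ASO-NC) and 37916307 (ASO-1235) counts. In all pairs of counts that follow, ASO-NC comes before ASO-1235. LINC01235 had 1337 and 0 counts. All 8 markers of HER2 positive breast epithelium were present, with a summed level of 10218 and 9655 counts per 1000000 counts of the scaled library (CPM). Markers of immune cells (1 of 8 reached 1 CPM, PTPRC had 0 and 8 counts), fibroblasts (2 of 7, PDGFRB had 0 counts in both), endothelial cells (1 of 5, PECAM1 had 0 and 10 counts) and red blood cells (0 of 3, HBA1 had 0 counts in both) summed to 57.3 and 52.2 CPM. COL1A1, a collagen gene, made up most of that sum, with 44.3 and 39.9 CPM. With a single library in each group there is no replicate check and no p-value, and what is compared is the libraries rather than the conditions.

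All ratios divide ASO-1235 by ASO-NC after scaling by TMM. Their 95% intervals are exact given the sum of both counts, which were halved because both mates of a read pair seem to have been counted, and they cover counting error only. Genes at 1 CPM or more in either library, here by total counts without scaling, were tested. These were 14352 genes with 38 of the 40 among them, but not CA9 and LDHB. A gene was called when it also differed by at least 1.5-fold with an interval that excluded 1. As in any bulk library, fewer cells with a transcript and less transcript per cell cannot be told apart.

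The call was met by 2 of the 38 genes: PGM2L1 was higher and ALDOA lower in the ASO-1235 library. Of all genes tested, 5.18% were called higher and 2.0% lower, so the members' counts lie near the background. At 2-fold PGM2L1 alone was called, with 0 members lower, where 2.38% of all genes were higher and 0.474% lower. A looser call asked that the larger of the 2 levels be at least 25% above the smaller, in place of 1.5-fold. By it 5 members were higher (PGM2L1, PFKFB3, EPAS1, BNIP3L and PDK1), where 12.0% of all genes were. The 6 members lower by it were ALDOA, ARNT2, PFKL, GAPDH, PFKFB4 and NDRG1, where 8.79% of all genes were. The 36 members not called at 1.5-fold differed by less than 1.5-fold or had intervals that included 1, and what they show is the pattern of smaller ratios. The plot of ratios with their intervals puts them by role.

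**Figure D1:**
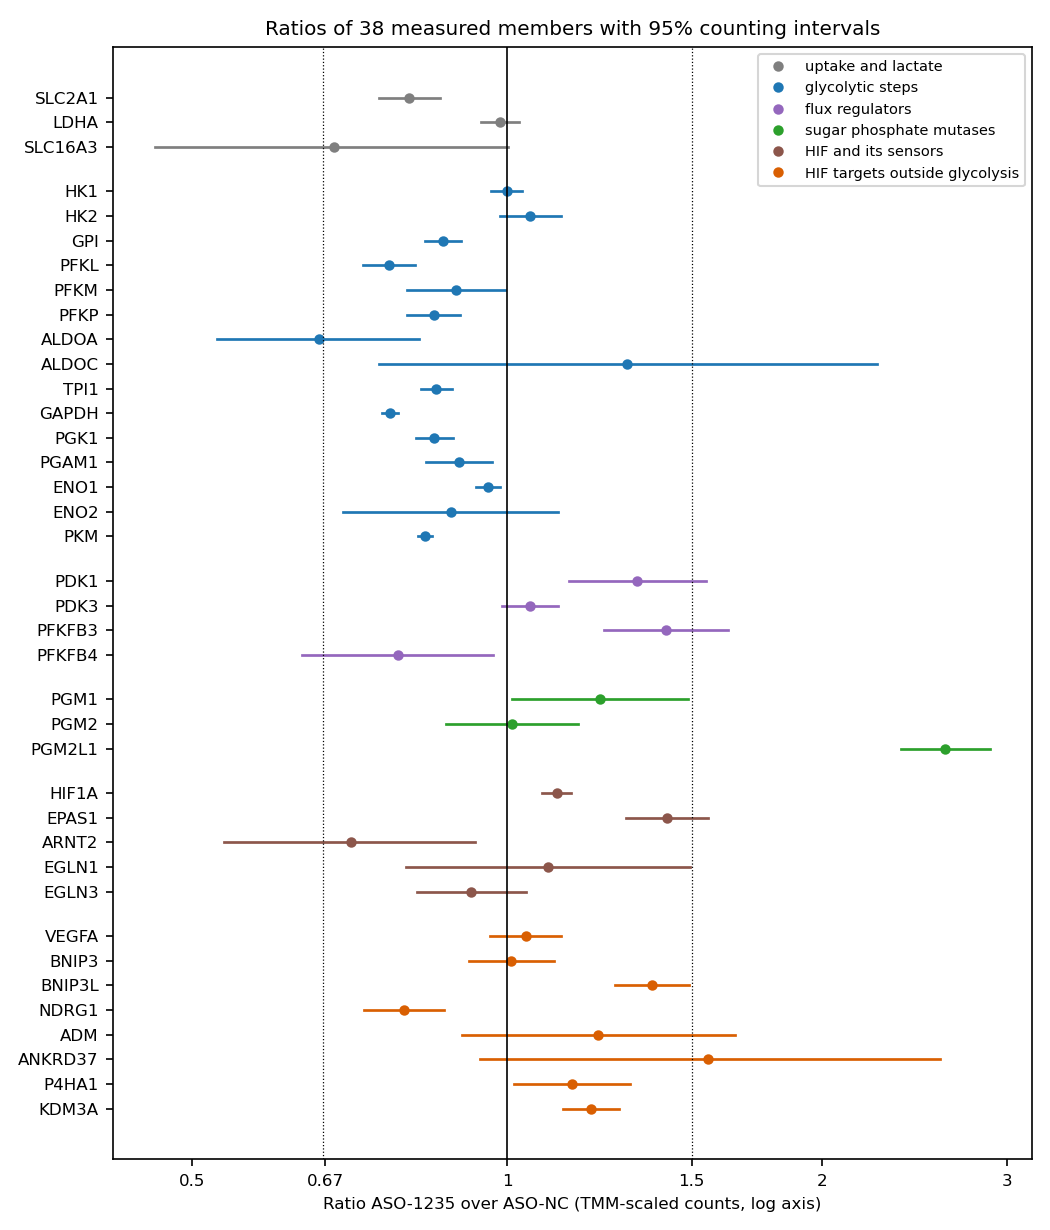
Ratio ASO-1235 over ASO-NC (log axis) of the 38 tested genes, coloured by role; bars are 95% counting intervals and dotted lines mark 1.5-fold. Most glycolytic steps lie left of 1, most HIF targets outside glycolysis right of it, and PGM2L1 stands alone at 2.62.

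DNA just before the start sites is shown for 5 genes, to set the glycolytic enzymes PFKL and PGK1, which had ratios under 1, beside the HIF target BNIP3 and the paralogs PGM2 and PGM2L1, which went apart. The sequences are RefSeq's (GRCh38.p14), 5′ to 3′ on the gene's strand. They lie between 220 and 61 bases before the start, cut back where a GENCODE 29 exon lies in that window. Capitals mark the HIF core letters ACGTG or GCGTG on either strand. The stretches are chr21:44299833-44299992 (+) for PFKL, chrX:78104028-78104173 (+) for PGK1, chr10:131982014-131982143 (-) for BNIP3, chr4:37826466-37826625 (+) for PGM2 and chr11:74398494-74398653 (-) for PGM2L1.
PFKL: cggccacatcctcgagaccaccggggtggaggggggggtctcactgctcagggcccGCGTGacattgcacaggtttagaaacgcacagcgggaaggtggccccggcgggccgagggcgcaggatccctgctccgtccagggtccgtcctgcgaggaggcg
PGK1: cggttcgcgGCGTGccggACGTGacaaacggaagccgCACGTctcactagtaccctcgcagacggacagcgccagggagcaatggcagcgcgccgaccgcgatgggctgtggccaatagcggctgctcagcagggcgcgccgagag
BNIP3: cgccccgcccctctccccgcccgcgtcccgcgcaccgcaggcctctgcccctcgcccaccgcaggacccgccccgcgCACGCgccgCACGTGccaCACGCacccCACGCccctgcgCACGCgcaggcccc
PGM2: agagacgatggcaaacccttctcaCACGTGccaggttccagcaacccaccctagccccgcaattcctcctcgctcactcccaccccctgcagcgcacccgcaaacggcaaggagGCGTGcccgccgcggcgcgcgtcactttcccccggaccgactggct
PGM2L1: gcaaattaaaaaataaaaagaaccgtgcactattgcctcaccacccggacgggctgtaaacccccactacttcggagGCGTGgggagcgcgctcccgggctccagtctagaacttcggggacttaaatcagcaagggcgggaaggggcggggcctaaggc

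A palindrome CACGTG holds ACGTG on both strands and counts as 2 matches. PGK1 had 3 matches in its stretch, BNIP3 6, PGM2 3, and PFKL and PGM2L1 1 each. PGM2, with more matches, had a ratio of 1.01, and PGM2L1, with a single GCGTG, had 2.62. RefSeq's table held 66 starts of 36 of the 40 genes, and 40 of these starts (60.6%) had either core within 250 bases before the start, against 54.8% of the 15511 starts of genes tested here. ACGTG alone was found at 25 of the 66 (37.9%), against 22.3%. Counted by gene, either core stood at a start of 13 of 15 glycolytic enzymes, against 64.9% of all tested genes in that table. The same held for 6 of the 6 HIF targets outside glycolysis in it, among them CA9, which was not tested. Genes with more starts have more chances to hold a match. Counted by start, either core stood at 17 of 34 (50%) for the glycolytic enzymes and at 7 of 7 for those HIF targets, against 54.8%. ACGTG alone stood at 13 of 34 (38.2%) and at 4 of 7, against 22.3%. A match of 5 letters describes a sequence and is not a binding site.

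Transcripts of the glycolytic steps were slightly lower in the ASO-1235 library. Of the 15 enzyme genes, 13 had ratios below 1 and 11 had an interval below 1, where 49.9% and 23.0% of all genes did. Their median log2 ratio was -0.20, a ratio of 0.869, against 0.00 for all genes tested. GAPDH, glyceraldehyde phosphate dehydrogenase, had 64246 and 41520 counts and a ratio of 0.773 (0.759 to 0.786). PKM, the pyruvate kinase at the end of the pathway, stood at 0.834 (0.821 to 0.847) from 80608 and 56211 counts. These 2 genes carried most of the reads: of all counts on the 15 genes they took 59.1% in ASO-NC and 56.3% in ASO-1235. The 15 genes together took 0.510% and 0.458% of all counts.

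The steps did not move evenly along the pathway. Hexokinase, which traps glucose in the cell, was level with TMM scaling. HK1 stood at 0.999 (0.965 to 1.03) from 14444 and 12068 counts, and HK2 at 1.05 (0.984 to 1.13) from 3715 and 3270. With scaling by total count HK1 was at 1.06 and HK2 at 1.12. With the trend on GC content and length removed they were at 1.06 and 1.07, and both values of HK1 lie above its interval. GPI, which isomerises glucose phosphate to fructose phosphate, had 11632 and 8450 counts and a ratio of 0.869 (0.835 to 0.904). All 3 phosphofructokinase genes, which encode the committed step, were lower. PFKL was at 0.771 (0.728 to 0.817) from 5976 and 3854 counts, PFKP at 0.850 (0.802 to 0.902) from 5437 and 3867, and PFKM at 0.893 (0.802 to 0.995) from 1602 and 1197. Some 8.58% of PFKM's exon bases are shared with SENP1 on the opposite strand.

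Among the enzymes that act on trioses, TPI1, which interconverts the triose phosphates, had 16774 and 12004 counts and a ratio of 0.856 (0.828 to 0.885). PGK1, the kinase that makes ATP from bisphosphoglycerate, had 11409 and 8130 counts and a ratio of 0.852 (0.818 to 0.887). PGAM1, the mutase that follows, was at 0.899 (0.836 to 0.966) from 3462 and 2602 counts. The smallest difference there was in enolase: ENO1 had 24921 and 19996 counts, a ratio of 0.959 (0.934 to 0.985), which lay above 1 at 1.02 with scaling by total count. ENO2, the neuronal form, was at 0.884 (0.697 to 1.12) from 345 and 255 counts. GAPDH, TPI1 and PGAM1 have processed pseudogenes, which took at most 1.996% of the sum in either library, and the ratios with those counts added were 0.774, 0.858 and 0.902.

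ALDOA, the aldolase of most tissues, was the lowest of the 15, at 0.661 (0.529 to 0.823) from 465 and 257 counts. The gene lies on chromosome 16 from 30064164 to 30070457 on the plus strand (GRCh38, GENCODE 29). Of its exon bases, 42.3% are also exons of ENSG00000285043 on the same strand, a protein-coding gene that had 134 and 91 counts. The sources used here do not say how reads in both genes were assigned, so the level of ALDOA, 2.54 CPM per kb of exon against 133 for TPI1 in the ASO-NC library, is uncertain. The call was lost with scaling by total count (0.701), by total count without mitochondrially encoded genes (0.678), and with the trend on GC content and length removed (0.721). ALDOC, the brain aldolase, had 56 and 61 counts and a ratio of 1.302 (0.754 to 2.26).

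**Figure D2:**
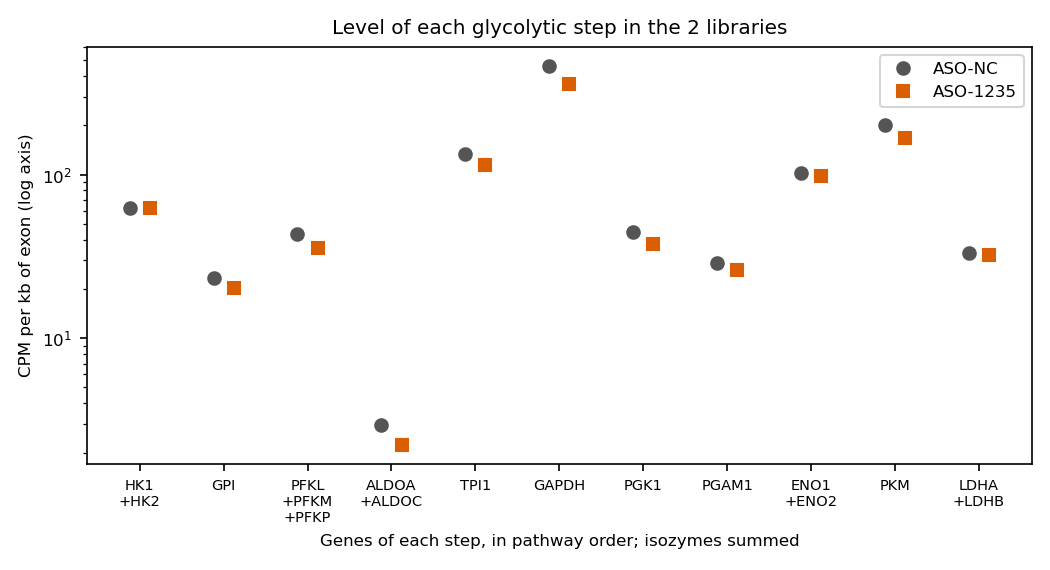
Level of each glycolytic step in CPM per kb of exon (log axis), isozymes summed, with a circle for ASO-NC and a square for ASO-1235. GAPDH is highest at 462 and 357, the aldolase step is lowest at 2.95 and 2.21, and the hexokinase points lie side by side at 62.3 and 62.9.

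Glucose uptake and lactate genes did not share one size of difference. SLC2A1, the glucose transporter GLUT1, had 4285 and 2889 counts (91.8 and 74.0 CPM), a ratio of 0.806 (0.754 to 0.862). LDHA, the lactate dehydrogenase subunit that favours lactate, was level with TMM scaling, at 0.984 (0.943 to 1.03) from 9552 and 7861 counts. Its transcript has 44.0% GC, and with the trend on GC content and length removed it was at 0.941. With scaling by total count it was at 1.04, and both values lie outside that interval. LDHB, the other subunit, had 5 counts in each library. LDHA made up 99.9% of the summed level per kb of these 2 genes in both libraries. A caution is that 33.4% of LDHB's exon bases are shared with ENSG00000285854 on the same strand, which had 0 counts in both. SLC16A3, the lactate exporter MCT4, had 154 and 88 counts and a ratio of 0.683 (0.461 to 1.002), with an interval that included 1.

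The kinases that steer flux went both ways. PFKFB3, which makes the bisphosphate that activates phosphofructokinase, was higher, at 1.42 (1.24 to 1.62) from 790 and 936 counts (16.9 and 23.97 CPM). Its paralog PFKFB4 was lower, at 0.787 (0.637 to 0.970) from 462 and 304 counts. PFKFB3 over PFKFB4 changed 1.80 times (1.41 to 2.30), a quantity that no scaling of the libraries can move. PDK1, a kinase that shuts pyruvate dehydrogenase, had 666 and 741 counts and a ratio of 1.33 (1.14 to 1.55). PDK3, of the same family, was level, at 1.05 (0.989 to 1.12) from 4524 and 3977 counts. Both PFKFB genes have a GC-rich transcript (55.7% for PFKFB3 and 56.8% for PFKFB4), and with the GC and length trend removed PFKFB3 was at 1.53 and PFKFB4 at 0.869. PDK1 and PDK3 are poorer in GC (39.8% and 43.5%) and were then at 1.12, below the interval of PDK1, and at 0.975, on the other side of 1.

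PGM2L1 had the largest difference of the 38 genes; it encodes the enzyme that makes glucose bisphosphate, the cofactor that keeps phosphoglucomutases active. It had 1192 and 2614 counts (25.5 and 66.9 CPM), a ratio of 2.62 (2.38 to 2.89). The gene (ENSG00000165434.8) is a minus-strand gene of chromosome 11, with GRCh38 bounds 74330318 and 74398473, and 1.55% of its exon bases overlap an antisense gene with 2 and 1 counts. Its transcript is long, at 8515 bases, and poor in GC, at 38.3%, and with the trend on both removed the ratio was 2.19.

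The other mutases were much closer to 1. PGM2, the paralog of PGM2L1 with a transcript of like GC content (39.9%), had 830 and 702 counts and a ratio of 1.01 (0.875 to 1.17). PGM1, the main enzyme that links glucose phosphates to glycogen, had 425 and 436 counts and a ratio of 1.23 (1.01 to 1.49). PGM2L1 over PGM2 changed 2.59 times (2.18 to 3.08). Per kb of exon, PGM2L1 made up 29.4% and 50.3% of the 3 mutases.

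Among HIF subunits, both alpha genes were higher and the partner ARNT2 lower. HIF1A, the alpha subunit found in most cells, was abundant, with 15799 and 14725 counts (338 and 377 CPM), a ratio of 1.11 (1.08 to 1.15). Its transcript has the lowest GC content of the members, 36.4%, and with the trend removed the ratio lay below 1, at 0.951. EPAS1, which encodes HIF-2 alpha, had 1773 and 2109 counts and a ratio of 1.42 (1.3 to 1.56). At 52.6% GC its ratio with the trend removed was 1.48. EPAS1 over HIF1A changed 1.28 times (1.16 to 1.40). ARNT2, a dimer partner of the alpha subunits, stood at 0.708 (0.537 to 0.931) from 292 and 173 counts.

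The 2 prolyl hydroxylases among the members, which sense oxygen, had intervals that included 1. EGLN3 stood at 0.924 (0.819 to 1.04) from 1266 and 978 counts. EGLN1, the main sensor in most cells, stood at 1.09 (0.801 to 1.496) from 178 and 163. The interval of EGLN1 is wide and includes differences of the size seen for PFKFB3 and EPAS1. EGLN2, the other HIF prolyl hydroxylase and not one of the 40, was at 0.828 (0.739 to 0.926) from 1524 and 1055 counts.

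HIF targets outside glycolysis had a median above 1, with few clear differences. Of 9 genes, 8 were tested, 7 had ratios above 1 and 3 had an interval above 1, where 50.1% and 22.8% of all genes did. Their median log2 ratio was 0.24, a ratio of 1.18, and none was called. BNIP3L, a receptor that marks mitochondria for autophagy, had 2256 and 2594 counts and a ratio of 1.37 (1.27 to 1.49). Its paralog BNIP3 was level at 1.01 (0.919 to 1.11) from 1964 and 1657 counts. KDM3A, a histone demethylase, had 4049 and 4072 counts and a ratio of 1.20 (1.13 to 1.28), and P4HA1, a subunit of the collagen prolyl hydroxylase, had 1000 and 965 and a ratio of 1.15 (1.02 to 1.31).

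The other 5 targets were VEGFA, CA9, NDRG1, ADM and ANKRD37. VEGFA, the vessel growth factor, had 2775 and 2418 counts and a ratio of 1.04 (0.964 to 1.13). CA9, the surface carbonic anhydrase often used to mark hypoxic tumour, had 0 counts in both libraries. A floor of 3 counts as deposited stands at 0.0642 and 0.0768 CPM. The bound on CA9 is higher than that if both mates of a pair were counted. Some 38.5% of its exon bases are shared with ARHGEF39 on the opposite strand, which had 599 and 356 counts, and how such reads were assigned is not given in the sources used here. NDRG1, a stress-inducible gene, was the exception below 1, at 0.797 (0.730 to 0.870) from 2540 and 1693 counts. ADM, the peptide hormone adrenomedullin, had 182 and 186 counts and a ratio of 1.22 (0.905 to 1.65). ANKRD37, a small ankyrin repeat gene, had 60 and 78 counts and a ratio of 1.55 (0.941 to 2.59), and 35.2% of its exon bases are shared with UFSP2 on the opposite strand.

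The glycolytic steps and the other HIF targets thus lay on opposite sides of 1, and the difference of their medians was 0.44 on the log2 scale. The scaling of the libraries cancels in this difference. With a minimum of 5 CPM, which drops ALDOC, ADM and ANKRD37, it was 0.35. Transcript composition moved with it. The median GC content was 53.3% for the glycolytic steps and 46.9% for the HIF targets. Across all 14020 tested genes with a known GC content, the log2 ratio was lower at higher GC (Pearson's r = -0.32, all points from the same 2 libraries), and across the 38 genes r was -0.56. The median log2 ratio was 0.20 among the 2804 genes poorest in GC and -0.19 among the 2804 richest.

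With the GC and length trend removed, the median was -0.07 for the glycolytic steps and 0.09 for the HIF targets, and the difference shrank to 0.16. Of the 15 steps 11 then had ratios below 1, and of the 8 targets 7 had ratios above 1. Of the 14020 genes, 7377 then had ratios below 1 and 6643 above, with a median of -0.014. Single genes moved by different amounts. With the trend removed, PGK1 (43.3% GC) went from 0.852 to 0.787, KDM3A (42.5%) from 1.20 to 1.06 and BNIP3L (38.9%) from 1.37 to 1.22. GAPDH, at 58.8% GC, went from 0.773 to 0.876.

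**Figure D3:**
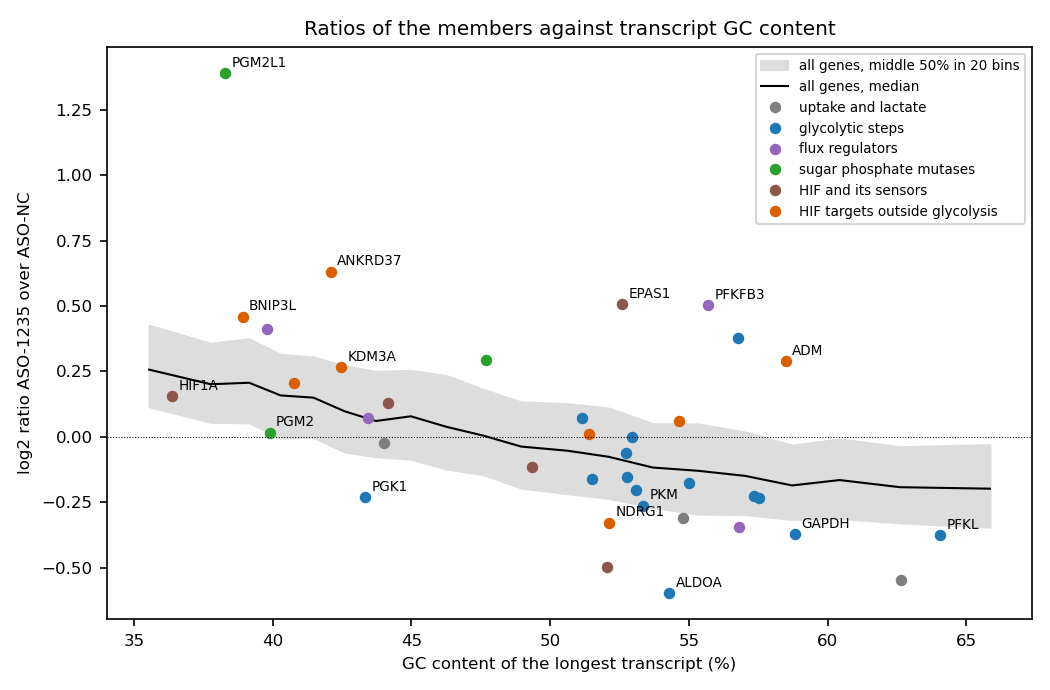
log2 ratio ASO-1235 over ASO-NC against the GC content of the longest transcript for the 38 genes, coloured by role, over the median (line) and middle 50% (band) of all genes in 20 bins. The glycolytic steps gather above 50% GC, where the line lies below 0. PGM2L1, EPAS1, PFKFB3 and ADM are among the genes above the band. PGK1, ALDOA, GAPDH, PFKL and NDRG1 are among those below it.

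Among the chosen genes, isozyme make-up, which does not depend on scaling, moved by under 3 percentage points in hexokinase, phosphofructokinase and enolase. HK1 held 78.9% and 78.04% of the hexokinase level per kb. PFKP held 55.9% and 57.3% of phosphofructokinase, PFKL 33.3% and 31.0%, and ENO1 98.3% and 98.5% of enolase. HK2 over HK1 changed 1.05 times (0.978 to 1.13) and ENO2 over ENO1 0.921 times (0.732 to 1.16). PFKL over PFKP changed 0.907 times (0.836 to 0.984). Among the aldolases, ALDOC held 13.9% and 24.1%, and ALDOC over ALDOA changed 1.97 times (1.13 to 3.44), with the caution above on ALDOA.

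For the regulators and targets the size of the shift differed from family to family. PFKFB3 went from 63.1% to 75.5% of the PFKFB pair and BNIP3L from 58.7% to 65.9% of its pair with BNIP3, with BNIP3L over BNIP3 changed 1.36 times (1.21 to 1.54). PDK1 over PDK3 changed 1.27 times (1.08 to 1.48), though PDK1 held only 4.67% and 5.84% of that pair. The PFKFB and PDK pairs hold chosen genes only. Among those they leave out, PFKFB2 had 1102 and 890 counts and a ratio of 0.966. PDK2, also left out, had 3198 and 2104 counts and a ratio of 0.787. With these genes included, the shares of PFKFB3 and PDK1 would be smaller. EPAS1 held 7.34% and 9.18% of the alpha subunits. Unlike the scaling, the GC and length trend does not cancel between 2 genes. With it removed BNIP3L (1.22) and BNIP3 (1.06) lay closer together, and EPAS1 (1.48) and HIF1A (0.951) further apart. Shares taken over the longest transcript of each gene in place of all exons gave PGM2L1 25.3% and 44.7%.

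**Figure D4:**
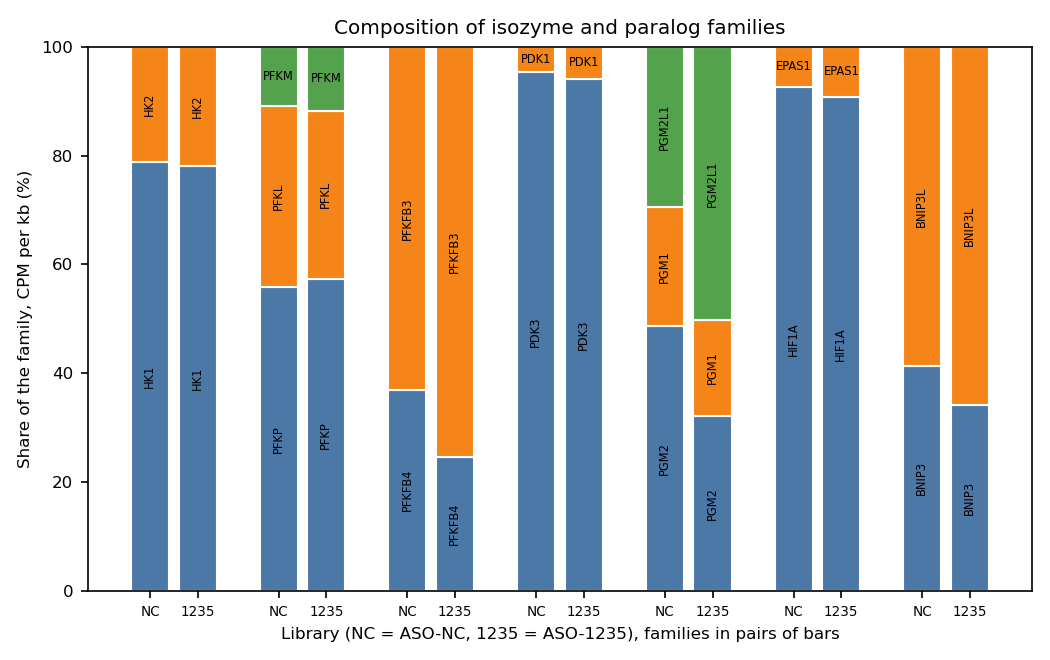
Share (%) of each gene in the summed CPM per kb of the chosen genes of its family, with the ASO-NC bar left and the ASO-1235 bar right. Family genes that were not chosen, such as PFKFB2 and PDK2, are left out of the sums. The hexokinase and phosphofructokinase bars are alike, while PGM2L1 grows from 29.4% to 50.3% and PFKFB3 from 63.1% to 75.5%.

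Further genes of the same pathways came from 6 lists with 129 genes outside the 40, of which 104 were tested, 7 called higher and 1 lower. Their median log2 ratio was -0.01. Of all genes tested, 5.18% were called higher and 2.0% lower, so the counts over these lists also lie near the background. Among 14 tested genes of glycolysis and lactate transport, the median was -0.15 with 10 ratios below 1, and LDHC, the testis lactate dehydrogenase, was called higher from 31 and 52 counts, a ratio of 2.01 (1.03 to 4.04). The 10 tested pentose phosphate genes had a median of -0.10 and 0 were called. Of these, TKT, the transketolase, was at 0.821 (0.783 to 0.861) and PGD at 0.835 (0.796 to 0.876). Genes that bring pyruvate into mitochondria had a median of -0.02 over 13 genes and 0 were called, with PDHA1, the pyruvate dehydrogenase subunit, at 0.895 (0.850 to 0.941) and DLD at 1.05 (0.994 to 1.11).

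The list of glycogen and sugar nucleotide genes held the highest ratios of the 6 lists, at low levels. Among its 21 genes, with a median of -0.04, PYGM and PYGL, the muscle and liver glycogen phosphorylases, were called higher. PYGM stood at 3.03 (2.06 to 4.52) from 77 and 195 counts, and PYGL at 3.51 (1.48 to 9.39) from 15 and 44. EPM2A, which encodes the glycogen phosphatase laforin, was called lower at 0.558 (0.388 to 0.791) from 208 and 97 counts. The brain form PYGB, far more abundant with 10306 and 7843 counts, was at 0.910 (0.873 to 0.949).

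The 33 other HIF targets outside glycolysis that were tested had a median of 0.04, closer to all genes than the 8 above, with 20 ratios above and 13 below 1. With the GC and length trend removed their median was -0.004, with 16 ratios above and 17 below 1. The 3 called higher were MAFF, a small MAF factor, at 2.32 (1.79 to 3.04), BHLHE41, a circadian repressor, at 1.57 (1.297 to 1.89), and RIOK3, a kinase, at 1.51 (1.41 to 1.62). Of 14 tested regulators of HIF, with a median of 0.01, SIAH1, a ubiquitin ligase that acts on prolyl hydroxylases, was called higher at 1.63 (1.35 to 1.962). VHL, which takes hydroxylated HIF alpha to destruction, was at 1.04 (0.944 to 1.14) and ARNT, the main partner of the alpha subunits, at 0.977 (0.882 to 1.08). VHL, ARNT, EGLN2 and PYGB were named after their values were seen.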

How the data were processed

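The authors deposited a table of raw counts per gene, as whole numbers, for 2 libraries of polyadenylated RNA. Per the submitters' processing notes, STAR 2.7.11a, featureCounts 2.0.6 and build hg38 were used. They give no annotation release, strand setting or treatment of overlapping genes. All 62699 genes with counts matched a name, and 3 lines without counts were left out. Among genes with 1 to 1000 counts, 67.5% of ASO-NC and 64.0% of ASO-1235 counts were even, so counts were halved for the intervals.

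TMM factors (edgeR 4.0.16, R 4.3.3) were 0.971 and 1.03. No edgeR test was run, because no group has replicates. Intervals are Clopper-Pearson (scipy 1.17.1), and those of changes between 2 genes are log-normal on halved counts. A count of 0 was read against a floor of 3 counts as deposited, not halved. Medians and the fold sizes of calls used log2 ratios with a prior count of 0.5. GENCODE 29 (GRCh38) gave coordinates, exon and transcript lengths and GC content. A level per kb divides CPM by the length of all exons. The GC and length trend came from robust regression (statsmodels 0.14.6) on natural splines of both, with 5 degrees of freedom per spline, over 97.7% of tested genes. The calculation was tested on simulated counts that were all even, so that test does not cover the odd counts of these libraries.

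All 40 genes were named, and of the further lists each called gene or, with none called, the 2 most abundant. Members and lists were chosen with earlier results of these data known. Alternatives were other scalings (among them DESeq2 1.42.0 size factors), minima, fold sizes, intervals and priors.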

Additional observations from a re-analysis of the deposited data

How the results depend on the processing

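PGM2L1 was called higher under every alternative run. With scaling by total count 3 members were called higher (EPAS1, PFKFB3 and PGM2L1) and 0 lower, and the median log2 ratio of the glycolytic steps was -0.12. With total count without mitochondrially encoded genes 0 were called lower. With the GC and length trend removed 2 were called higher (PFKFB3 and PGM2L1) and 0 lower, the medians were -0.073 for the glycolytic steps and 0.089 for HIF targets outside glycolysis, and their difference was 0.16. Intervals on the counts as deposited gave 2 higher (ANKRD37 and PGM2L1). For these settings the share of all genes called is not given here, so their counts of called members stand without a background. With the larger level at least 25% above the smaller, in place of 1.5-fold, 5 were higher and 6 lower. Of all genes 12.0% and 8.79% were. At 2-fold 0 members were lower. Over the alternatives the median of the glycolytic steps stayed below 0 and that of the HIF targets among the members above 0. Without ALDOA, an alternative chosen after the data were seen, the difference was 0.43. Scaling by total count moved 11 of 38 single ratios outside their intervals and put HK1, ENO1 and LDHA above 1, and removal of the trend moved 17 and changed the side of 1 for 6. Pseudogene counts changed the side for 0 of 15. No paired analysis was possible because each group has 1 library. At low counts the intervals are wide: those of ALDOC and ANKRD37, both under 100 counts, include 1.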

Other observations

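Non-coding neighbours named after the members were weak. SLC2A1-DT, divergent from SLC2A1, had 119 and 81 counts and a ratio of 0.814 (0.532 to 1.23), beside 0.806 for SLC2A1. HK2-DT had 87 and 68 counts and a ratio of 0.935 (0.579 to 1.498). HIF1A-AS3, antisense to HIF1A, had 42 and 34 counts, GAPDH-DT 20 and 6, and ENO1-AS1 16 and 2, all under 1 CPM in both libraries.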
